A study of Mus musculus with 6 samples.

Results

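The 79 histone genes described here are the protein-coding genes of GENCODE M1 on mm9 whose names start with Hist followed by a cluster number and h, or with H2af, H3f3 or H1f, out of 22367 protein-coding genes on the 21 chromosomes with a Dppa2 peak. The rule uses names alone and no Dppa2 value, although earlier results of these data were known when the genes were chosen. Of these, 67 carry a cluster name (55 Hist1, 9 Hist2, 2 Hist3 and 1 Hist4) and 12 carry the name of a variant, and by histone type 9 are H1, 26 H2A, 18 H2B, 13 H3 and 13 H4 genes. A gene was called Dppa2-bound when the midpoint of a listed peak lay within 1 kb of the transcription start site (TSS) of any of its transcripts. By this criterion 4 of the 79 histone genes were bound, namely the testis histone genes Hist1h2ba and Hist1h2aa, which share 1 peak, the spermatid linker histone gene H1fnt and the linker histone gene H1fx.

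Core histones H2A, H2B, H3 and H4 form the nucleosome around which DNA is wrapped, and the linker histone H1 binds the DNA between nucleosomes. The canonical genes lie in clusters, are mostly transcribed in S phase when DNA is replicated, and yield mRNAs that end in a stem-loop instead of a poly(A) tail. Variant genes are single genes that are in many cases expressed throughout the cell cycle, and some histone genes are used only in germ cells, where testis histones replace canonical ones before the sperm genome is packaged by transition proteins and protamines. Dppa2 is a SAP-domain protein of pluripotent cells and the early embryo that is known for its role at promoters of genes used in germ cells and in development.

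The peaks come from 1 anti-V5 ChIP-seq library of CGR8 mouse ESCs, a line grown without feeders, in which N-terminally V5-tagged Dppa2 was expressed from a vector with the pPyCAG promoter after puromycin selection of stable clones. The tagged protein was thus made from a transgene beside the endogenous gene, and whether 1 clone or several were used is not given in the sources used here. The control was an anti-V5 ChIP of CGR8 cells that express no V5 tag, which entered only through the authors' peak calling. This control and the ChIPs of H3K4me1, H3K4me3, H3K27ac and H3K9me3 in untagged CGR8 cells were not analysed here. With 1 library there is no replicate error, and no test between groups can be made. Binding is therefore described by counts, with exact Clopper-Pearson 95% intervals that cover counting error only.

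The DNA upstream of 3 bound and 2 unbound histone genes is shown first, because the bound genes have different types of promoters. Each sequence is the mm9 reference, 5′ to 3′ in the direction of transcription, up to 250 bases before the TSS. Capitals mark the letters TATAAA (the TATA box), CCAAT (the CCAAT box) and ATTTGCAT (the octamer of H2B promoters), searched on both strands, so that a match on the other strand appears as its reverse complement. None of these matches overlapped another in the sequences shown. The annotated TSS of Hist1h2ba is the first coding base, and the 70 bases before it are left out.
Hist1h2ba, bound, chr13:24026096-24026275, minus strand: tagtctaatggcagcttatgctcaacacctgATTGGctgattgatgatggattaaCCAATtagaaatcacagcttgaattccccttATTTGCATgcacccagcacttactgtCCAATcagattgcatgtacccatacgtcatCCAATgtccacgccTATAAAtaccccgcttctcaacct
H1fnt, bound, chr15:98087739-98087988, minus strand: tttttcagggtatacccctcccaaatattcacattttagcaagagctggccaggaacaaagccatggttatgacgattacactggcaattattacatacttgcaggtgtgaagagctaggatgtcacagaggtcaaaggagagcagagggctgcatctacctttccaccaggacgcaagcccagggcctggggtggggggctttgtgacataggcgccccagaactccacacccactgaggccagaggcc
H1fx, bound, chr6:87931477-87931726, minus strand: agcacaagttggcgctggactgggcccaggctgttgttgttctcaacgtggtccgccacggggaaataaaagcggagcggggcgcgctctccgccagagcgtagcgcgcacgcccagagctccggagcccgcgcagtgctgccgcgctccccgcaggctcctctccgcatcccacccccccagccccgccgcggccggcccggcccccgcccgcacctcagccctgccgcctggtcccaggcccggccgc
Hist1h2bc, not bound, chr13:23775818-23776067, plus strand: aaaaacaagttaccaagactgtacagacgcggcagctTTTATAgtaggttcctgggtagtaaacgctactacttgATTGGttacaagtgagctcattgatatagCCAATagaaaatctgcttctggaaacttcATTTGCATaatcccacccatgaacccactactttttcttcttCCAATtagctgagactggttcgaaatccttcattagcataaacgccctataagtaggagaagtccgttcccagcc
Hist1h1t, not bound, chr13:23787430-23787679, plus strand: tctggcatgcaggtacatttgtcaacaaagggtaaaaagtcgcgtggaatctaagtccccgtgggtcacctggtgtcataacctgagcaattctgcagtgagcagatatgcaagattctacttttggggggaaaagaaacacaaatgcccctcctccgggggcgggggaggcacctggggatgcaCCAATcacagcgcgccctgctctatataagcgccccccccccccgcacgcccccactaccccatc
Hist1h2ba has the elements of a canonical H2B promoter, with 4 CCAAT boxes, an octamer that starts 164 bases before the TSS and a TATA box that starts 94 bases before it. Hist1h2bc, a canonical H2B gene of the same cluster with no peak, has an octamer, 3 CCAAT boxes and a TATA box on the opposite strand. H1fnt and H1fx contain none of the 3 motifs in these 250 bases. They differ from each other in base composition, with 3 CpG dinucleotides in H1fnt and 30 in H1fx.

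Dppa2 bound 5.06% of the histone genes (4 of 79, interval 1.4 to 12.5%), whereas 14.2% of all protein-coding genes were bound. The interval covers counting error only and treats genes as independent, which Hist1h2ba and Hist1h2aa are not. Among the 17 histone genes where under 10% of the 36-mers around the TSS occur more than once in mm9, the share was not lower. There 17.6% were bound (3 of 17, interval 3.8 to 43.4%) against 15.7% of other protein-coding genes, and the interval lies on both sides of that share. This comparison is not matched for CpG content. Among CpG-rich promoters of this kind the histone share was the lower one, with wide intervals that include the share of other genes, as given below. Most histone genes have 1 exon and 1 annotated TSS. Among protein-coding genes with 1 annotated exon 9.67% were bound, and among those with 1 annotated TSS 11.7% were bound. Both of these shares lie within the interval of 1.4 to 12.5% of the histone genes. The other 22288 protein-coding genes were bound in 14.2% of cases (interval 13.7 to 14.7%). The list was taken to hold peaks at TSSs, so that binding of histone genes away from TSSs cannot be judged from it.

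**Figure D1:**
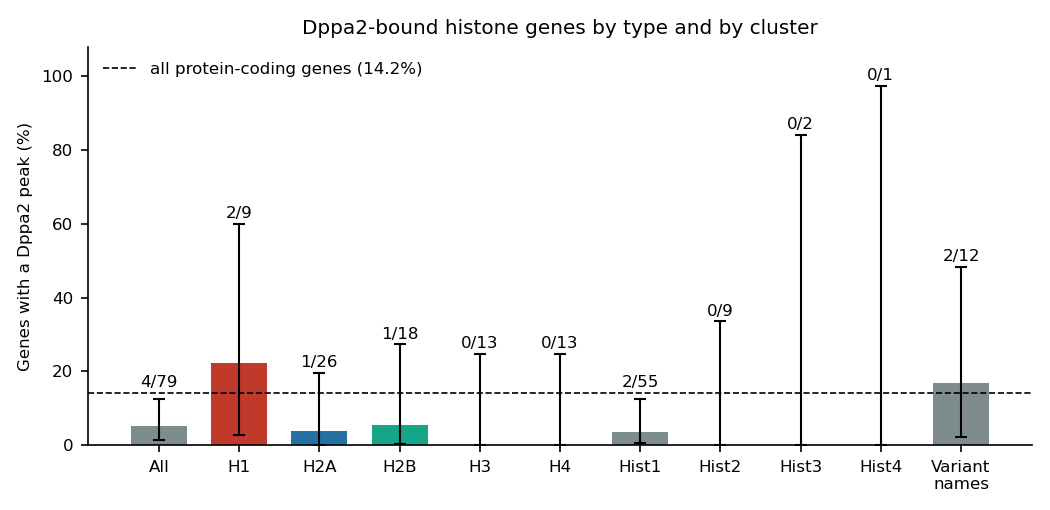
Share of histone genes with a Dppa2 peak within 1 kb of a TSS (y axis, percent), for all 79 genes, by histone type and by cluster name. Bars give the share, error bars the exact 95% interval, numbers the bound genes over all genes of that group, and the dashed line all protein-coding genes at 14.2%. The bound genes lie among H1, H2A and H2B, and no H3, H4, Hist2, Hist3 or Hist4 gene had a peak.

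By histone type, 2 of 9 H1 genes were bound (22.2%, interval 2.81 to 60%), 1 of 26 H2A genes (3.85%, interval 0.0973 to 19.6%) and 1 of 18 H2B genes (5.56%, interval 0.141 to 27.3%). None of the 13 H3 genes and none of the 13 H4 genes was bound, for each of which counting error allows up to 24.7%. These intervals overlap each other and include the 14.2% of all protein-coding genes, so that no order of the types can be read from them. Both bound H1 genes carry variant names. The 6 H1 genes of the Hist1 cluster, Hist1h1a to Hist1h1e of somatic cells and the testis gene Hist1h1t, had no peak, and neither did the oocyte linker histone gene H1foo. By cluster name, 2 of 55 Hist1 genes were bound (3.64%, interval 0.443 to 12.5%), while none of the 9 Hist2 genes, neither Hist3 gene and not the single Hist4 gene was. Counting error allows up to 33.6% of the Hist2 genes, and the Hist3 and Hist4 names hold too few genes to be read. Of the 12 variant genes 2 were bound (16.7%, interval 2.09 to 48.4%), which is close to the share of all protein-coding genes.

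The Hist1h2ba gene (ENSMUSG00000050799) encodes the testis H2B that is also known as TH2B and runs from 24025637 to 24026025 of chromosome 13 on the minus strand. Its neighbour Hist1h2aa (ENSMUSG00000060081), from 24026331 to 24026720 on the plus strand, encodes the matching testis H2A, TH2A. The genes are transcribed away from each other from TSSs with 305 bp between them. The Dppa2 peak, chr13:24025078-24026967, is 1890 bp wide and covers both genes entirely together with the DNA between them. Its midpoint lies within the coding sequence of Hist1h2ba, 3 bp past that TSS, and 309 bp upstream of the Hist1h2aa TSS. This peak had a score of 136 and ranked 2786 of 3336, where the median score is 228 and the quartiles are 156 and 348. It is thus among the lower-scoring peaks of the list, although it is at least as wide as 80.2% of them.

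H1fnt (ENSMUSG00000048077), which encodes the linker histone of round and elongating spermatids, occupies bases 98086413 to 98087738 of chromosome 15, minus strand. Its peak, chr15:98086904-98087963, is 1060 bp wide, covers the TSS and has its midpoint 305 bp further downstream, within the coding sequence of exon 1. Its score was 485 and its rank 396, within the upper 11.9% of the list. No other gene of the annotation has a TSS within 1 kb of this midpoint. H1fx (ENSMUSG00000044927), which encodes a linker histone of somatic cells, occupies bases 87930416 to 87931476 of chromosome 6, also on the minus strand. Its peak, chr6:87930161-87932400, covers the whole gene over 2240 bp, with the midpoint in the coding sequence 196 bp past the TSS. Its score of 1048.5 gave rank 41, within the upper 1.23% of all peaks. A TSS of the gene Gm5577 on the opposite strand lies 397 bp from the same midpoint, so that this peak cannot be assigned to H1fx alone. The 3 peaks thus had low, high and very high ranks in the list. At a score of at least 200, where 8.06% of all protein-coding genes were bound, H1fnt and H1fx were the 2 histone genes left (2.53%).

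**Figure D2:**
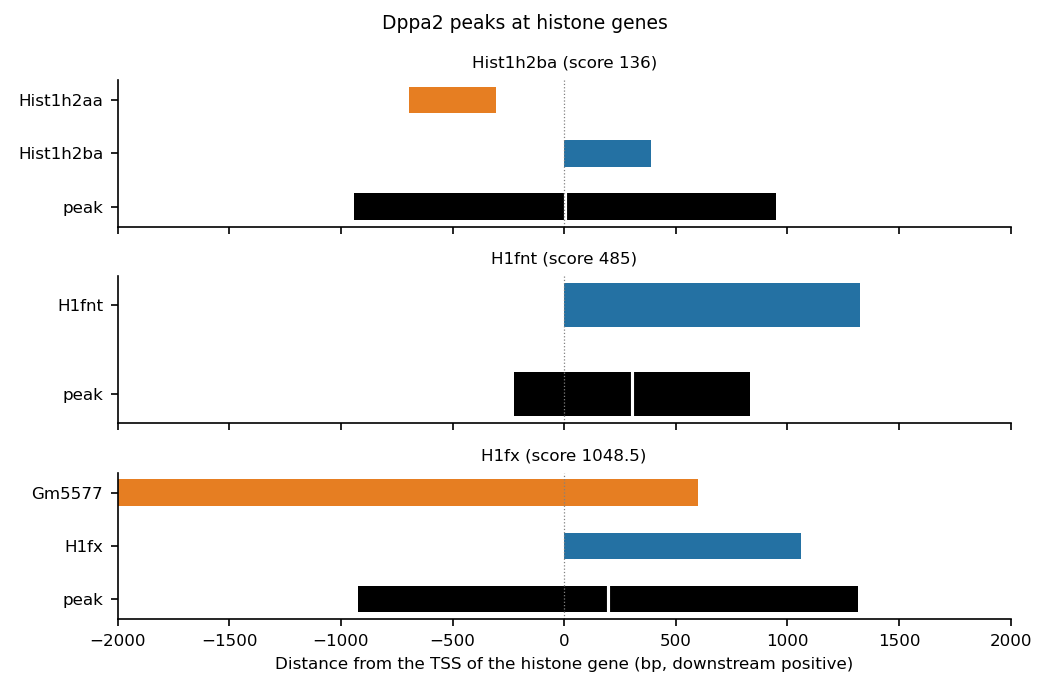
The 3 Dppa2 peaks at histone genes, drawn to scale by distance from the TSS of the histone gene (x axis, bp, downstream positive). Black bars are peaks with the midpoint as a white line, blue bars genes transcribed to the right and orange bars genes transcribed to the left, cut at 2000 bp. All 4 histone TSSs lie inside a peak, and the first peak spans Hist1h2aa and Hist1h2ba.

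The bound genes were set against the histone genes known for their use in germ cells. Of 9 symbols listed for this purpose, 6 are protein-coding genes of the annotation, and 3 of these were bound, Hist1h2ba, Hist1h2aa and H1fnt (50%, interval 11.8 to 88.2%). The list was written when Hist1h2ba and H1fnt were already known to have a peak, so that it is no independent evidence. Hist1h2aa is bound by the same peak as Hist1h2ba and adds nothing independent. The interval includes the 14.2% of all protein-coding genes. The germ-cell genes without a peak were Hist1h1t, the H1 of spermatocytes, with the nearest peak at 238 kb, H1foo with the nearest peak at 13 kb, and H2afb1, an H2A variant gene of the testis, at 266 kb. Of the other 73 histone genes only H1fx was bound (1.37%, interval 0.0347 to 7.4%). None of the 64 other cluster-named genes, which were all but Hist1h2ba, Hist1h2aa and Hist1h1t, had a peak, and counting error allows up to 5.6%. Since the germ-cell list took out both bound cluster-named genes, this count of 0 follows from the choice of the list. The low share among the other 73 genes depends on the same choice.

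Among the protein-coding genes counted here, variant genes of somatic cells other than H1fx had no peak within 1 kb. The annotation types H1f0 as a pseudogene, so that it is not counted, and its nearest peak was 80.5 kb away. It is 1 of 10 genes of other types with matching names, and none of these was bound. H3f3a and H3f3b, which both encode the replacement histone H3.3, lay 116 and 49 kb from the nearest peak. H2afz and H2afv, which encode the H2A.Z proteins found at promoters, lay 200 and 55 kb away. For H2afx, whose product is phosphorylated at DNA breaks, the distance was 66.7 kb, and for H2afj 289 kb. The macroH2A genes H2afy and H2afy2, whose products are enriched on the inactive X chromosome, lay 160 and 87.8 kb from a peak. No histone gene had its nearest peak between 1 and 5 kb from a TSS, where only 1.32% of other protein-coding genes had theirs. The nearest misses were Hist3h2a at 7.33 kb, Hist3h2ba at 10.5 kb and H1foo at 13 kb. The peak nearest to Hist3h2a was at a TSS of the pseudogene Gm12260, and that nearest to Hist3h2ba at a TSS of Rnf187. The same 4 genes were bound with windows of 500, 2000 or 5000 bp. Since the list was taken to hold peaks at TSSs, few genes of any kind have a peak at such distances. Nothing particular to histone genes can be read from this.

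Most unbound histone genes were far from any listed peak. The median distance from a TSS to the nearest peak midpoint was 292 kb for the 75 unbound histone genes (quartiles 198 and 372 kb, range 7.33 to 548 kb) and 190 kb for other unbound protein-coding genes (quartiles 65 and 557 kb). More than 100 kb separated 68 of the 79 histone genes (86.1%) from a peak, as it did for 56.6% of other protein-coding genes. Genes of 1 cluster share their neighbourhood and their nearest peak, so that these distances are few independent values. The unbound Hist1 genes lay between 102 and 548 kb from a peak, with a median of 312 kb. The Hist2 genes lay between 366 and 415 kb from the same peak on chromosome 3.

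The Hist1 cluster contained a single peak, at its end. Without Hist1h2al, which lies apart on the same chromosome, it spans 2.22 Mb of chromosome 13 with 54 histone genes in blocks of 23 and 31 genes. Between the blocks lie 1487.8 kb without a histone gene. The Hist1h2ba and Hist1h2aa pair is the last of the second block and lies 170 kb from Hist1h1a, the nearest other histone gene. The 48 other protein-coding genes between the outermost histone TSSs had no peak either, whereas 15.8% of the other protein-coding genes of chromosome 13 were bound (128 of 810). The distance from the peak at Hist1h2ba to the one before it on the chromosome was 2.44 Mb, the 14th longest of 128 such gaps on chromosome 13. This stretch holds 52 histone genes and 58 other protein-coding genes, among them 33 vomeronasal receptor and 8 olfactory receptor genes, none of them bound. Few of the 48 non-histone genes lie within the blocks themselves, 3 in the first and 7 in the second. Most lie between the blocks, so that they are not close neighbours of the histone genes. On the far side of Hist1h2aa the next peak was 0.347 Mb away.

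**Figure D3:**
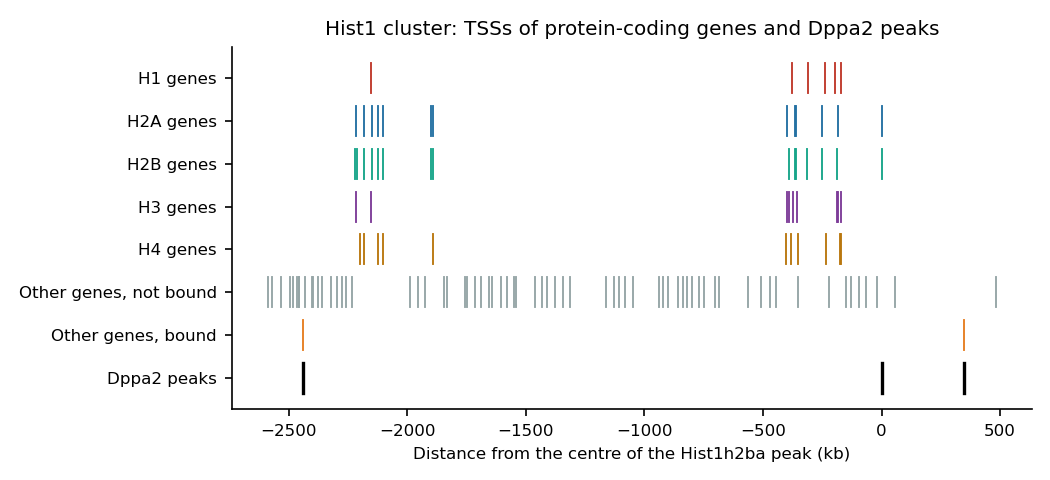
TSSs of the H1, H2A, H2B, H3 and H4 genes of the Hist1 cluster and of other protein-coding genes, with Dppa2 peaks, by distance from the centre of the Hist1h2ba peak (x axis, kb). Each vertical line is 1 TSS or 1 peak. The peak at 0 kb is the only one among the 54 histone genes, and the next peaks lie 2.44 Mb to the left and 0.347 Mb to the right.

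Paired genes of H2A and H2B that share a promoter offer the closest comparison for Hist1h2ba and Hist1h2aa. Such divergent pairs, with TSSs within 1 kb of each other and transcribed outward, were looked for after the first counts were known. There were 13, and 12 of them had no peak, with the nearest one at 221 to 548 kb. Except for the pair of Hist1h2bh and Hist1h3f, each unbound pair joins an H2A and an H2B gene. The 305 bp between the TSSs of the bound pair lie within the 167 to 692 bp of the unbound pairs, whose median is 228 bp. Its GC content was 44.9% against 36.3 to 48.4% (median 42.4%), and its CpG observed/expected ratio 0.526 against 0.158 to 1.17 (median 0.657). A CCAAT box was found between the TSSs of all 12 unbound pairs, a TATA box in 5 and an octamer in 4. The bound pair had all 3, with 4 CCAAT boxes, 2 TATA boxes and 1 octamer over the whole 305 bp. The Hist1h2ba sequence shown above holds 1 of these TATA boxes. All 3 motifs were also found in unbound pairs, namely Hist1h2ae and Hist1h2bg, Hist1h2ac and Hist1h2bc, and Hist2h2ac and Hist2h2be. Having all 3 is therefore not particular to the bound pair. No unbound pair had more than 1 TATA box. None of the 36-mers between the TSSs of the bound pair is repeated in mm9, and for the unbound pairs the median and both quartiles were also 0%, with a range up to 100%. The DNA between the bound genes was therefore inside the range of the unbound pairs in length, GC and CpG content. It was outside that range in the number of exact TATAAA matches. Similar letters, such as the TATAAG near the end of the Hist1h2bc sequence shown above, were not counted. A difference in working TATA boxes can therefore not be read from these counts.

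Across all histone genes, the 250 bases before the TSS held the motifs more often than those of protein-coding genes in general. A CCAAT box was present in 63 of the 79 (79.7%, all protein-coding genes 34.8%), a TATA box in 34 (43%, all protein-coding genes 12.4%) and an octamer in 15 (19%, all protein-coding genes 1.66%). The CCAAT box was found in all 18 H2B genes and in 4 of 13 H4 genes. The octamer was found in 8 H2B and 7 H2A genes and in no H1, H3 or H4 gene, and many of these H2A and H2B genes share the DNA between them. Dppa2-bound genes other than histone genes had a CCAAT box in 29.4%, a TATA box in 5.75% and an octamer in 0.885%. Of the unbound cluster-named genes 55 of 65 had a CCAAT box, 31 a TATA box and 13 an octamer. Among the 10 unbound variant genes, H2afx had a TATA box, 6 had a CCAAT box and none had an octamer.

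Promoters of histone genes were rich in CpG. Over 1000 bp around 1 TSS per gene, the 75 unbound histone genes had a median CpG observed/expected ratio of 0.88 and a median GC content of 54.8%. Other protein-coding genes had a median ratio of 0.776 and 63.2% GC when bound, and 0.465 and 53.3% GC when not. Unbound histone genes thus had a higher CpG ratio than the typical bound gene at a lower GC content. The bound histone genes fell on both sides, with 0.892 and 71.7% GC at H1fx, 0.683 and 53.7% at Hist1h2ba, 0.648 and 52.1% at Hist1h2aa, and 0.439 and 53.3% at H1fnt. Among the unbound variant genes, H3f3a reached 0.944 with 72.8% GC and H2afz 0.959 with 71.8% GC, which is as rich as H1fx. For H3f3b the TSS used was the most upstream of 4, at a ratio of 0.247 and 40.3% GC.

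**Figure D4:**
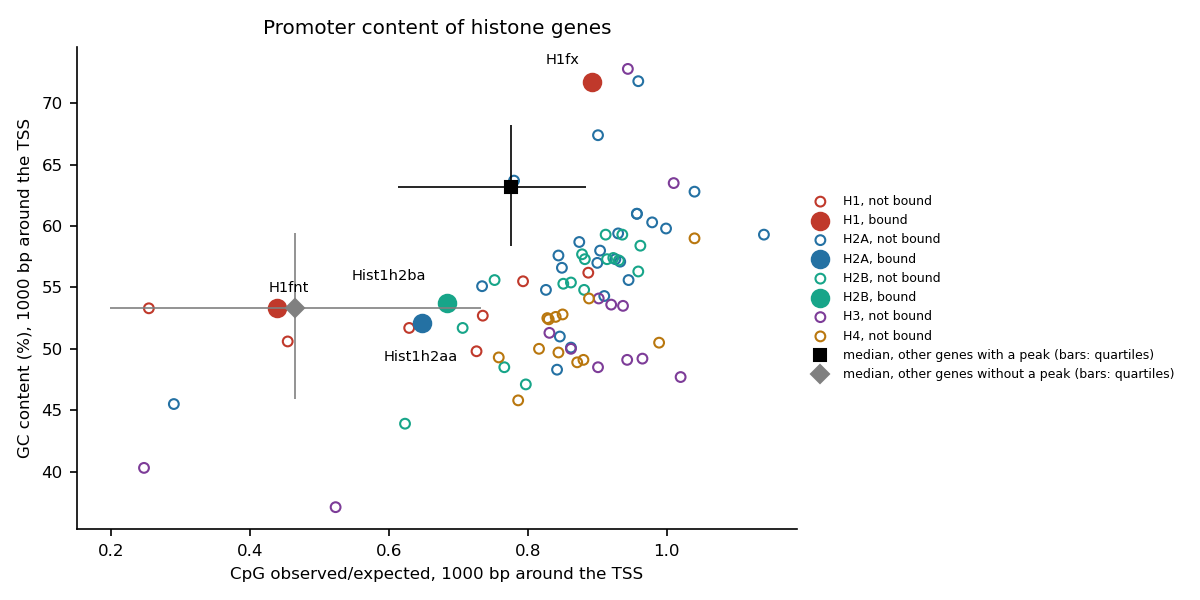
CpG observed/expected ratio (x axis) and GC content in percent (y axis) over 1000 bp around the TSS of each histone gene, 1 circle per gene. Colours give the histone type, filled circles the 4 bound genes, and the square and diamond the medians of other protein-coding genes with and without a peak, with quartiles as bars. Most unbound histone genes lie to the right of both medians, and H1fnt lies near the median of unbound genes.

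The bound share of other protein-coding genes rose with the CpG ratio, from decile to decile, up to 35.3% in the highest decile and 28.6% in the one below it. Histone genes did not follow these shares. Of the 79, 58 fell in the upper 2 deciles, and 1 of these, H1fx, was bound (1.72%, interval 0.0436 to 9.24%), against 32% of the 4415 other genes there. Hist1h2ba fell in decile 7, Hist1h2aa in decile 6 and H1fnt in decile 5, where 16.7, 14.9 and 12.1% of other genes were bound. No test was made of this difference, since the genes of a cluster share their neighbourhood.

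Many histone genes are near copies of each other, and reads from such sequence cannot be placed with certainty. The share of 36-mers in the 1000 bp around the TSS that occur more than once in mm9 was 16.5% at Hist1h2ba, 3.73% at Hist1h2aa and 0% at H1fnt and H1fx. Among the 75 unbound histone genes the median was 32.3%, with a range from 0 to 100%, and 61 of them reached 10%. Where under 10% of the 36-mers were repeated, 3 of 17 histone genes were bound (17.6%, interval 3.8 to 43.4%) against 15.7% of other protein-coding genes, and the interval lies on both sides of that share. Of the 43 histone genes with 10 to under 50%, 1 was bound (2.33%, interval 0.0589 to 12.3%) against 8.54% of other genes, and of the 19 with 50% or more none was (interval up to 17.6%) against 5.47%. Within the upper 5 CpG deciles, 2 of 13 histone genes with under 10% repeated 36-mers were bound (15.4%, interval 1.92 to 45.4%). Of other genes there 23.1% were bound, which lies in that interval. Within the upper 2 CpG deciles, 1 of 7 histone genes with under 10% repeated 36-mers was bound (14.3%, interval 0.361 to 57.9%), against 31.9% of other genes. In the same deciles, 0 of 51 histone genes with at least 10% repeated 36-mers were bound (interval up to 6.98%), against 75 of 233 other genes (32.2%). The low number of bound histone genes and the repeated sequence moved together, and its part in the result was not tested.

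**Figure D5:**
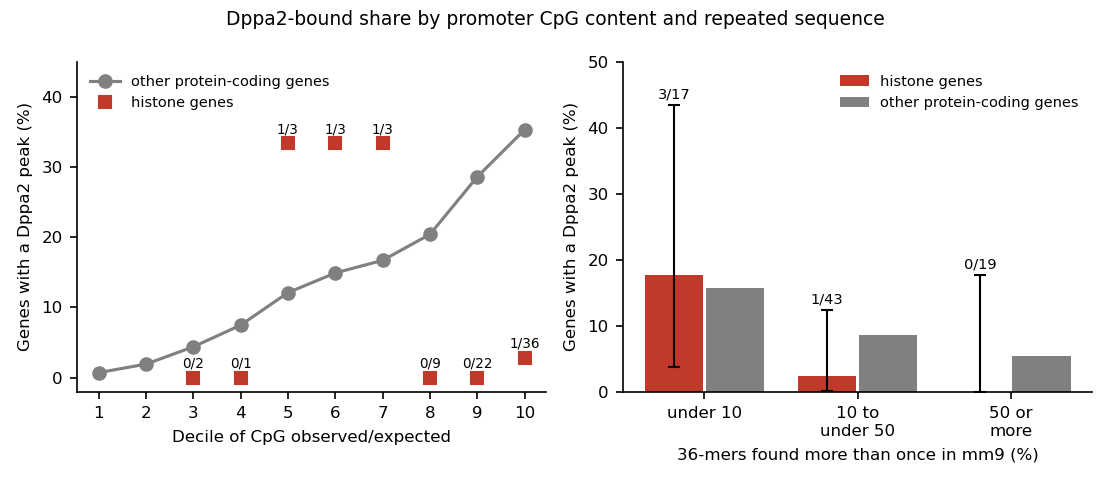
Share of genes with a Dppa2 peak (y axes, percent) by decile of the CpG ratio (left) and by the share of 36-mers around the TSS that occur more than once in mm9 (right). Red stands for histone genes, with bound genes over all genes as numbers and exact 95% intervals at right, and grey for other protein-coding genes. In deciles 8 to 10 the histone genes lie below the other genes, and at under 10% repeated 36-mers 3 of 17 were bound.

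The genes that supply histone mRNA and handle histone proteins were counted in the same way. Of 15 genes for transcription and 3′ end processing of canonical histone mRNA, 4 were bound (26.7%, interval 7.79 to 55.1%). Npat, the coactivator of canonical histone genes that is activated by cyclin E and Cdk2, had a peak with a score of 475, rank 411 and a midpoint 37 bp from the TSS. This peak is shared with Atm, which has a TSS 344 bp from the midpoint. Ccne2, a cyclin E gene, had a peak with a score of 238, Cpsf1, a subunit of the cleavage and polyadenylation factor, one of 150, and Lsm11, a protein of the U7 snRNP that recognises histone mRNA, one of 145. Slbp, which encodes the stem-loop binding protein, and Casp8ap2, which is needed for histone transcription, had no peak. Sympk, also of this list, lay 1.45 kb from a peak with a score of 439 and was not bound by the 1 kb criterion. The count of this list therefore depends on the window. Npat was thus bound, as were 2 of the 67 cluster-named histone genes (2.99%, interval 0.364 to 10.4%).

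Among 26 histone chaperone genes 5 were bound (19.2%, interval 6.55 to 39.4%). Hira, the chaperone that deposits H3.3, had a peak with a score of 309 that is shared with Mrpl40, and Ubn2, a partner of Hira, had one of 176. Hjurp, which deposits the centromeric H3 variant, had a peak with a score of 276 that is shared with Trpm8, and the nucleosome assembly genes Nap1l1 and Nap1l4 had scores of 155 and 146. The H3.3 genes themselves were unbound. Of 10 symbols for sperm and centromere packaging proteins outside the naming rule, 8 were found and 1 was bound, Tnp2, which encodes a transition protein, at a score of 326 (12.5%, interval 0.316 to 52.7%). The protamine genes Prm3, Prm2 and Prm1 lay 2.5, 3.69 and 8.47 kb from the same peak and were not bound by the 1 kb criterion. The intervals of all 3 lists include the 14.2% of all protein-coding genes.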

How the data were processed

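The deposited list gives interval, name and score of each V5-Dppa2 peak on mm9. The authors made the score as −log10 of the p-value from MACS against the control, multiplied by 10. They removed low-complexity reads, aligned with Bowtie 0.12.7, keeping the best alignment, removed duplicates (the processing notes name Picard 1.81) and kept MACS 1.4.2 peaks with 100 reads or more and p-values up to 1e-10. Depth is unknown from a peak list.

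Midpoints were set against all GENCODE M1 TSSs. GC, CpG and 36-mers were read from 1000 bp around 1 TSS per gene, the one of most transcripts. Bound genes, variant genes and listed germ-cell genes are named, and other histone genes were named after their values were seen. Genes and lists were chosen with earlier results of these data known. Comparisons with 1-exon and 1-TSS genes, divergent pairs, the Hist1 gaps and classes of repeated sequence were added after seeing the data. The peak distances, the bound calls and the 36-mer counts were tested on simulated data, and the other steps were not. Alternatives were a stricter score, other windows, any peak base, coding TSSs, shared promoters counted once, few repeated 36-mers and a 500 bp content window. Python 3.11.15, numpy 2.4.6, scipy 1.17.1, numba 0.67.0 and matplotlib 3.10.9 were used. The other 5 samples were not analysed here.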

Additional observations from a re-analysis of the deposited data

How the results depend on the processing

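Of 72 values recomputed under an alternative setting, 67 stayed within their interval or spread, 5 moved and none reversed. This count did not set the values against the share of all protein-coding genes. Windows of 500, 2000 and 5000 bp, any base of the peak and TSSs of protein-coding transcripts left the same 4 genes bound. Where genes with TSSs within 1 kb were counted once, 3 of 64 promoter regions were bound (4.69%). With members under 10% repeated 36-mers alone, the bound share was 17.6% (3 of 17), no longer below that of other protein-coding genes (15.7%). This setting leaves out 62 genes, most of them of the Hist1 and Hist2 clusters. It does not match genes for CpG content. In the upper 5 CpG deciles the share under this setting was 15.4% (2 of 13) against 23.1% of other genes. At a score of at least 200 the shares of H2A, H2B and Hist1 genes became 0, since the peak at Hist1h2ba and Hist1h2aa has a score of 136, and the median peak score of the bound genes was 767 instead of 485. No paired analysis was possible because the peak list comes from 1 library, and there was no replicate to leave out. A peak list gives neither depth nor signal at unbound genes, so that binding below the authors' threshold was not detectable.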
